A study of Danio rerio with 12 samples.

Results

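The wound matrix and plasminogen activation genes described here are 7 zebrafish genes chosen by symbol: fn1a and fn1b (fibronectin 1), tnc (tenascin C), plaua (urokinase-type plasminogen activator), thbs1b (thrombospondin 1), anxa2a (annexin A2) and anxa1a (annexin A1). Their Ensembl identifiers in the table are ENSDARG00000019815 (fn1a), ENSDARG00000006526 (fn1b), ENSDARG00000021948 (tnc), ENSDARG00000075265 (plaua), ENSDARG00000010785 (thbs1b), ENSDARG00000003216 (anxa2a) and ENSDARG00000026726 (anxa1a). Each symbol belonged to 1 row of an expression table of 44667 genes and assembled loci, and each identifier was also found in a reference list of zebrafish gene names. Of the 7 genes, 6 passed the filter on low values and were tested among 30674 rows. plaua did not pass it, and its values are given without a place in the main test.

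The larvae were wild type, taken whole at 4 days post fertilisation, and fell into 4 groups of 3 libraries. PFOS20 larvae were in PFOS at 20 mg/L, OBS20 and OBS30 larvae were in OBS at 20 and 30 mg/L, and control larvae were untreated. PFOS is perfluorooctane sulfonate, a legacy fluorinated surfactant, and OBS is sodium p-perfluorous nonenoxybenzene sulfonate, which the series presents as its emerging substitute. When exposure began, how long it lasted, whether control water held a solvent, and whether a library was 1 larva, a pool or a separate clutch are not stated in the sources used here, and p-values therefore reflect the spread of these libraries alone, which may be technical. The 2 compounds were matched by mass per volume, not by molecules.

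Fibronectin is a dimeric glycoprotein that forms a provisional matrix in wounds and binds cells through integrins, and in zebrafish both fibronectin and tenascin C are deposited in regenerating fins and hearts. Urokinase cuts plasminogen into plasmin, which digests fibrin and fibronectin, and serpin inhibitors hold plasmin and its activators in check. In mammals annexin A2 and the S100 protein S100A10 form a complex at the cell surface that binds plasminogen and its activators. Thrombospondin 1 binds the receptors CD36 and CD47 and can release TGF-beta from its latent form, and annexin A1 is known in mammals for limiting neutrophil recruitment and for helping epithelium to close.

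Levels are TPM, a share of all transcripts scaled by transcript length, so levels of different genes can be set side by side. Changes are differences in mean log2(TPM + 1) ± the standard error of a limma fit across all 12 libraries, and calls were made at p below 0.05 after Benjamini-Hochberg adjustment over the 30674 rows. OBS20 replicate 3 stood apart from the other libraries, with a median TPM of 1.27, against 1.57 and 1.80 in PFOS20 replicates 2 and 3, the nearest to it, and up to 2.33 in the rest. The median change of all rows in PFOS20 was -0.13, against -0.0043 with quantile normalisation and -0.0013 with median-of-ratios scaling. Scaling also moved the share of calls that were higher. In PFOS20 that share was 34.7%, against 48.3% with quantile normalisation and 49.2% with median-of-ratios scaling. In OBS20 against control it was 45.8%, against 57.7% with quantile normalisation, and in OBS30 against OBS20 70.5%, against 56% with quantile normalisation. Markers of muscle, neurons, liver and epidermis were present in every group.

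Of the 6 tested genes, 3 rose and 1 fell in PFOS20 against control, where 18.3% of all rows were called, 6.35% higher and 11.9% lower. None was called in OBS20 against control by limma, where 1.49% of rows were called (0.681% higher and 0.805% lower). There 1 of the 6 had an unadjusted p below 0.05, beside 3218 of all 30674 rows. In OBS30 against control 3 rose and none fell, where 8.42% of rows were called, 4.73% higher and 3.7% lower. The median change of the 6 genes was 0.50 in PFOS20, 0.11 in OBS20 and 0.66 in OBS30, beside medians over all rows of -0.13, -0.084 and 0.021. Libraries of exposed and control larvae did not overlap for 4 of the 6 genes in PFOS20 (43.3% of all rows), 2 in OBS20 (15% of rows) and 5 in OBS30 (33.3% of rows). The 3 comparisons share the same control libraries. In whole larvae, fewer cells of a type and less RNA per cell cannot be told apart.

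**Figure D1:**
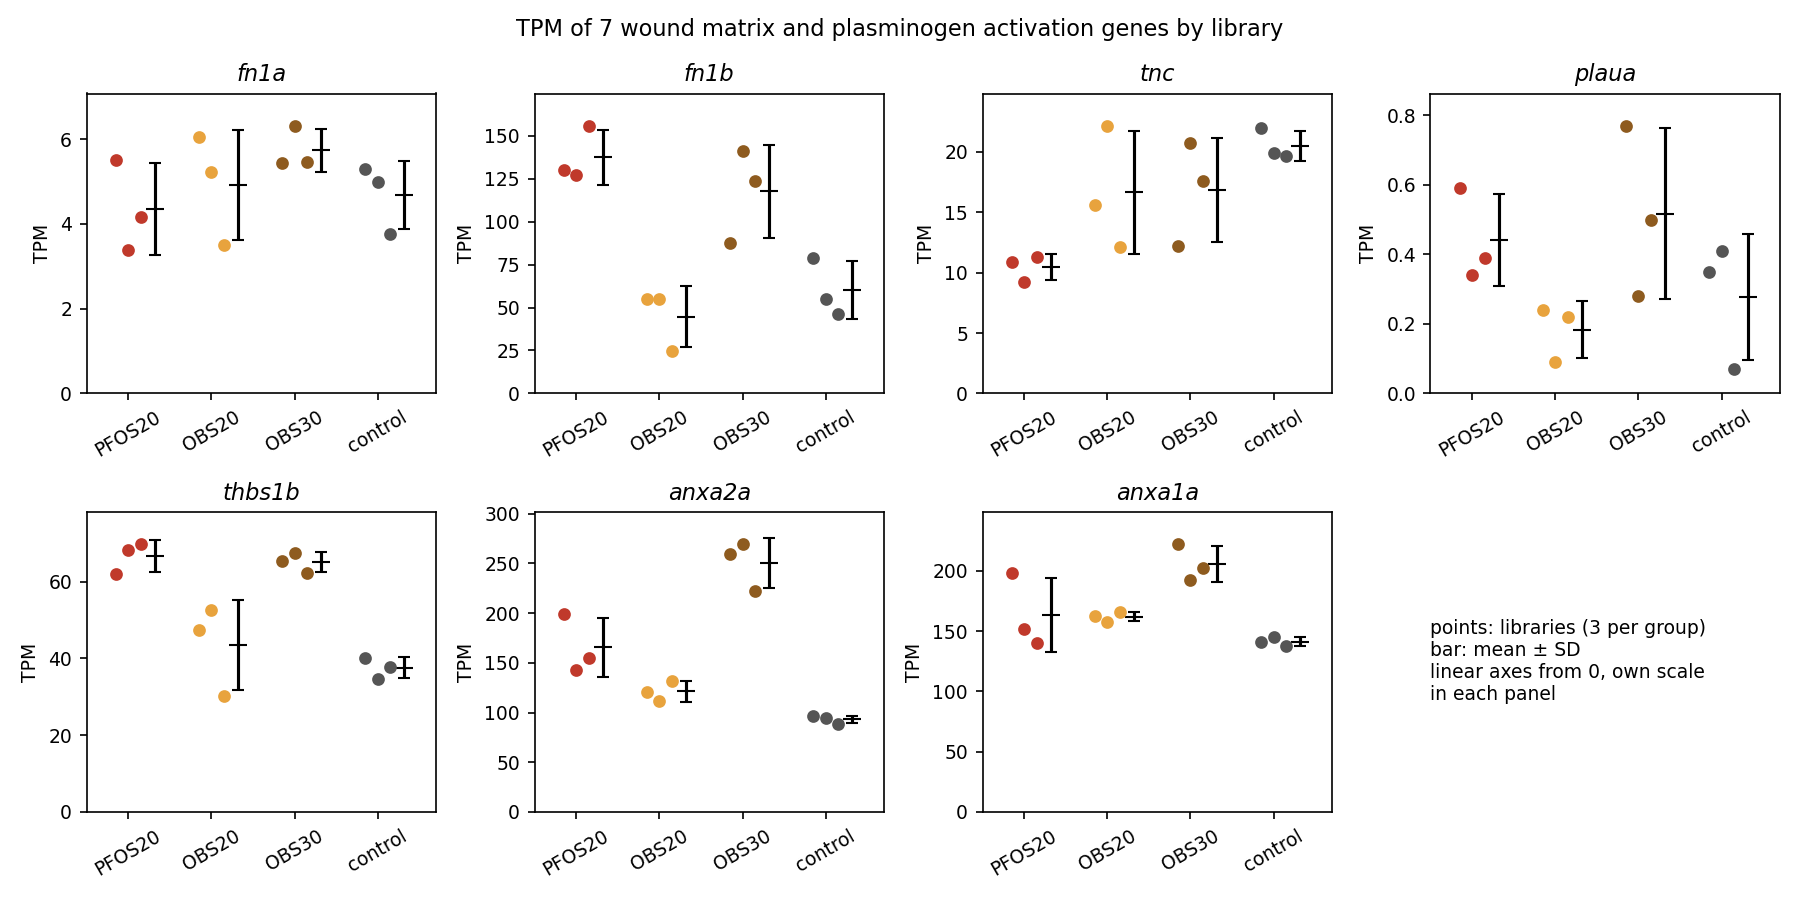
TPM of the 7 genes in each library by group, with points for the 3 libraries and bars for mean ± SD on linear axes that start at 0. fn1b and thbs1b are high in PFOS20 and OBS30, anxa2a is highest in OBS30 at 222 to 269 TPM, tnc is lowest in PFOS20 at 9.23 to 11.3 TPM, and plaua stays below 1 TPM in every library.

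Of the 2 fibronectin genes, fn1b was called and fn1a was not. fn1b rose in PFOS20 to a mean of 137.7 TPM, against 60.1 TPM in control, while fn1a, at about 4 to 6 TPM in every group, was not called in any comparison. fn1b had 130.0, 127 and 156 TPM in PFOS20, 55.0, 54.9 and 24.5 TPM in OBS20, 87.9, 141 and 124 TPM in OBS30, and 79.1, 54.9 and 46.3 TPM in control. Every PFOS20 and OBS30 library was above every control library, and the OBS20 libraries overlapped control. The change of fn1b was 1.21 ± 0.31 in PFOS20 (adjusted p = 0.02), -0.47 ± 0.31 in OBS20 (adjusted p = 0.7) and 0.97 ± 0.31 in OBS30 (adjusted p = 0.085). The PFOS20 call was lost without any 1 of the 3 PFOS20 libraries or of control replicates 3 and 4, with adjusted p of 0.053 to 0.078 and changes of 1.05 to 1.27. The OBS30 value passed the threshold without OBS20 replicate 3 (adjusted p = 0.015), with quantile normalisation (0.045) and with median-of-ratios scaling (0.023).

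fn1a had 5.51, 3.38 and 4.16 TPM in PFOS20, 6.05, 5.22 and 3.51 TPM in OBS20, 5.43, 6.32 and 5.47 TPM in OBS30, and 5.29, 4.99 and 3.77 TPM in control. The PFOS20 and OBS20 libraries overlapped control, and those of OBS30 lay just above it. Its change was -0.10 ± 0.20 in PFOS20, 0.046 ± 0.20 in OBS20 and 0.25 ± 0.20 in OBS30, with adjusted p of 0.79, 0.97 and 0.55 and an interval in PFOS20 of -0.55 to 0.35. The ratio of fn1b to fn1a within a library was 32.9 ± 8.05 in PFOS20, 8.86 ± 1.78 in OBS20, 20.4 ± 3.65 in OBS30 and 12.7 ± 2.02 in control (SD, n = 3 each). All PFOS20 and OBS30 ratios exceeded all control ratios, and all OBS20 ratios were below them. An assembled locus with fibronectin annotation, MSTRG.38767, was not called, with a change of 0.70 in PFOS20 (adjusted p = 0.064) and 0.76 in OBS30 (adjusted p = 0.08).

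tnc, whose product is a hexameric matrix protein that weakens cell attachment to fibronectin, fell in PFOS20 to a mean of 10.5 TPM, against 20.5 TPM in control. Its levels were 10.9, 9.23 and 11.3 TPM in PFOS20, 15.6, 22.2 and 12.1 TPM in OBS20, 12.2, 20.7 and 17.6 TPM in OBS30, and 21.95, 19.9 and 19.7 TPM in control. PFOS20 lay wholly below control, and both OBS groups overlapped it. The change was -0.91 ± 0.22 in PFOS20 (adjusted p = 0.017), -0.32 ± 0.22 in OBS20 (adjusted p = 0.71) and -0.30 ± 0.22 in OBS30 (adjusted p = 0.5). The PFOS20 call was lost without PFOS20 replicate 3 (-0.83, adjusted p = 0.066) or control replicate 2 (-0.86, adjusted p = 0.057). None of the other tested rows with tenascin orthology was called lower in PFOS20 in the main test. zmp:0000000846 rose by 0.91 in PFOS20 (adjusted p = 9e-04), and the assembled locus MSTRG.13063 rose by 0.75 (adjusted p = 0.018), a call lost without PFOS20 replicate 2 or 3 or control replicate 3 or 4. tnn, the most abundant tenascin row, had 116.5 ± 2.46 TPM in PFOS20, against 102 ± 3.60 TPM in control, and was not called (0.18, adjusted p = 0.43; 0.045 with median-of-ratios scaling). tnr, the tenascin of the nervous system, had a change of -0.75 (adjusted p = 0.054). It was called lower in 7 of 20 alternatives, among them both quantile normalisation and median-of-ratios scaling. Of 16 neuron markers 15 fell in PFOS20 and 4 in OBS30, where 11.9% and 3.7% of all rows were called lower. Their summed level was 1013 to 1561 TPM in PFOS20 and 2047 to 2294 TPM in OBS30, against 2735 to 2921 TPM in control. The mean of tnr in OBS30 was 7.30 TPM, and in control it was 7.24 TPM. The part of neurons in the changes of tnc and tnr was not tested.

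thbs1b rose in PFOS20 and in OBS30. Its levels were 62.0, 68.2 and 69.8 TPM in PFOS20, 47.5, 52.6 and 30.3 TPM in OBS20, 65.5, 67.4 and 62.3 TPM in OBS30, and 40.2, 34.7 and 37.9 TPM in control. Both groups lay above all control libraries, and OBS20 spanned them. The change was 0.81 ± 0.17 in PFOS20 (adjusted p = 0.0083), 0.17 ± 0.17 in OBS20 (adjusted p = 0.82) and 0.78 ± 0.17 in OBS30 (adjusted p = 0.016). The OBS30 call was lost without OBS30 replicate 1 or 3 or control replicate 3 or 4, with adjusted p of 0.053 to 0.067 and changes of 0.72 to 0.78. It was also lost with the replicate number as a block.

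Its paralogue thbs1a, at a lower level in control, was called in the same comparisons with control. thbs1a averaged 43.2 ± 4.12 TPM in PFOS20, 11.4 ± 2.67 TPM in OBS20, 28.2 ± 5.57 TPM in OBS30 and 11.6 ± 1.67 TPM in control (SD, n = 3 each). It rose by 1.81 ± 0.19 in PFOS20 (adjusted p = 0.00024) and by 1.20 ± 0.19 in OBS30 (adjusted p = 0.0029), and its change in OBS20 was -0.039 (adjusted p = 0.97). The ratio of thbs1a to thbs1b was 0.647 ± 0.026 in PFOS20, 0.265 ± 0.014 in OBS20, 0.432 ± 0.079 in OBS30 and 0.309 ± 0.038 in control. PFOS20 and OBS30 ratios were above all control ratios, and OBS20 ratios overlapped them. CABZ01064941.1, a row with thrombospondin 1 orthology, rose by 1.88 in PFOS20 (adjusted p = 9e-04) and by 1.58 in OBS30 (adjusted p = 0.003), and reads from similar thrombospondin rows may have been split between them.

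**Figure D2:**
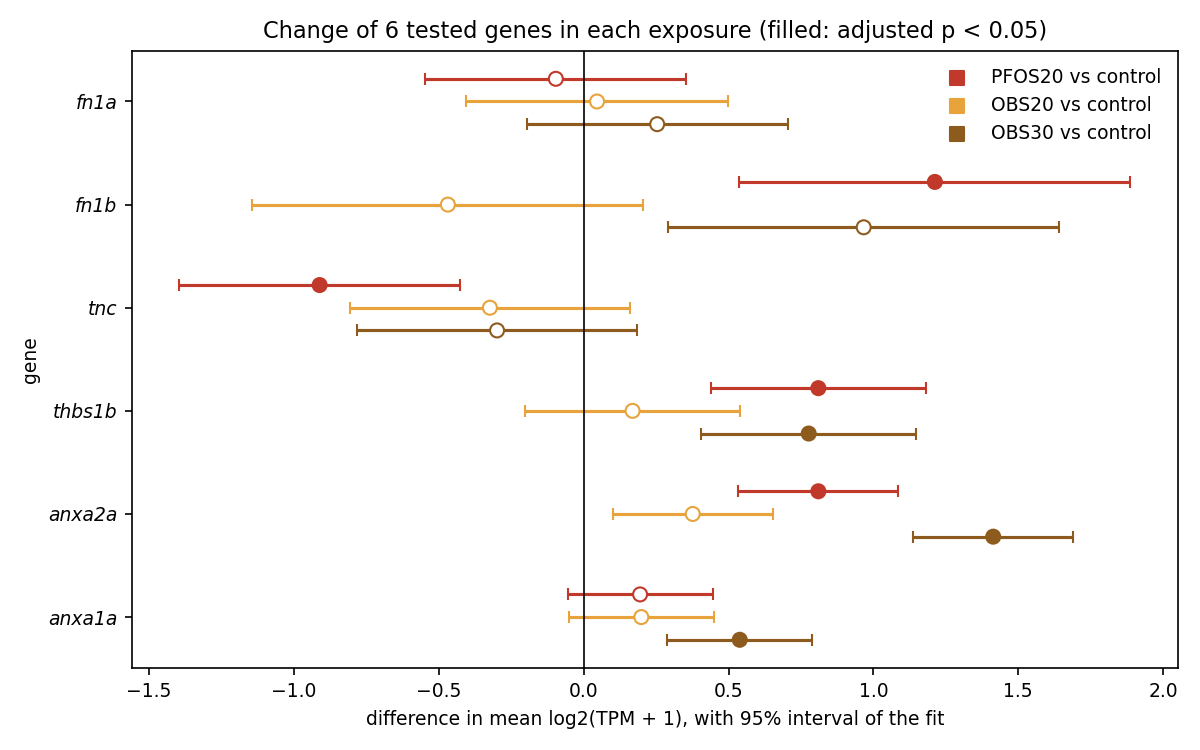
Change in mean log2(TPM + 1) of the 6 tested genes in PFOS20, OBS20 and OBS30 against control, from top to bottom for each gene, with 95% intervals of the fit and filled points for adjusted p below 0.05. In PFOS20 fn1b (1.21), thbs1b (0.81) and anxa2a (0.81) lie to the right and tnc (-0.91) to the left, and in OBS30 thbs1b, anxa2a and anxa1a are filled.

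plaua was close to the lower limit of the table. It had 0.59, 0.34 and 0.39 TPM in PFOS20, 0.24, 0.09 and 0.22 TPM in OBS20, 0.77, 0.28 and 0.50 TPM in OBS30, and 0.35, 0.41 and 0.07 TPM in control. The 2 highest values were in OBS30 replicate 1 and PFOS20 replicate 2, and both groups overlapped control. With no filter on low values the change of plaua was 0.18 ± 0.14 in PFOS20 (adjusted p = 0.47), -0.10 ± 0.14 in OBS20 (adjusted p = 0.89) and 0.25 ± 0.14 in OBS30 (adjusted p = 0.42), so no difference was detectable at these levels. Neither plaub, a second row with urokinase orthology, nor plat, the tissue-type activator, was called in any comparison.

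Other genes of plasminogen activation and fibrinolysis were called, among them inhibitors and a gene for tissue factor, which starts clotting. Of a list of 28 such genes, 23 were tested, and in PFOS20 6 rose and 2 fell. Over all rows 6.35% were called higher and 11.9% lower there. The list median was 0.18 beside -0.13 over all rows. f3b, a tissue factor gene, had 24.9 ± 0.760 TPM in PFOS20, against 8.76 ± 0.584 TPM in control, a change of 1.41 ± 0.21 (adjusted p = 0.0017). Among the others called higher were serpine2 and serpine3, which belong to the serpin family of protease inhibitors, lrp1ab, a receptor that clears inhibitor-protease complexes in mammals, and s100a10b. serpinf2a, an antiplasmin gene, fell by 0.68 (adjusted p = 0.026), and serpinb1, an inhibitor of leukocyte proteases in mammals, fell by 0.70 (adjusted p = 0.0039). With median-of-ratios scaling neither fall was called, and serpinf2a was not called without PFOS20 replicate 2 or 3 or control replicate 2 or 4; the count of falls was 1 without PFOS20 replicate 2 or 3 or control replicate 2. In OBS20 none rose and 5 fell, where 0.681% of all rows were called higher and 0.805% lower. Of the 23 genes 11 had an unadjusted p below 0.05, beside 3218 of all 30674 rows. The 5 falls were serpinb1 (-0.84), serpinf2b (-0.82), serpinc1 (-0.80), fga (-0.78) and fgb (-0.70), which include antiplasmin, antithrombin and 2 fibrinogen chains. That count was 2 with median-of-ratios scaling, 0 with only the 6 libraries compared, 2 without OBS20 replicate 1, 3 without OBS20 replicate 3, 1 without control replicate 2 and 2 without control replicate 3.

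In OBS30 4 of the list rose and 7 fell, where 4.73% of all rows were called higher and 3.7% lower. The list median was -0.11 beside 0.021 over all rows. serpinf2a fell by 1.26 ± 0.18 (adjusted p = 0.0016) to 6.33 TPM in OBS30, against 16.4 TPM in control, and serpinb1 fell by 1.20. plg, the plasminogen gene, fell by 0.60 in OBS30 (adjusted p = 0.025), and its change was -0.61 in OBS20 (adjusted p = 0.07) and -0.19 in PFOS20 (adjusted p = 0.39). The falls stood beside liver markers: 13 of 16 hepatocyte markers fell in OBS30, 11 in OBS20 and 6 in PFOS20. Of all rows 3.7%, 0.805% and 11.9% were called lower in those groups. The summed level of these markers was 6430 to 7403 TPM in OBS30, against 9843 to 11990 TPM in control. The fibrinogen genes fga, fgb and fgg belong to both lists, so the 2 sets of counts are not independent. Most clotting and antiplasmin proteins are made in liver, and the part of the hepatocyte markers in the result was not tested. Without OBS30 replicate 4 or control replicate 3 the counts in OBS30 were 2 higher and 4 lower, and without control replicate 4 the count of higher genes was also 2.

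**Figure D3:**
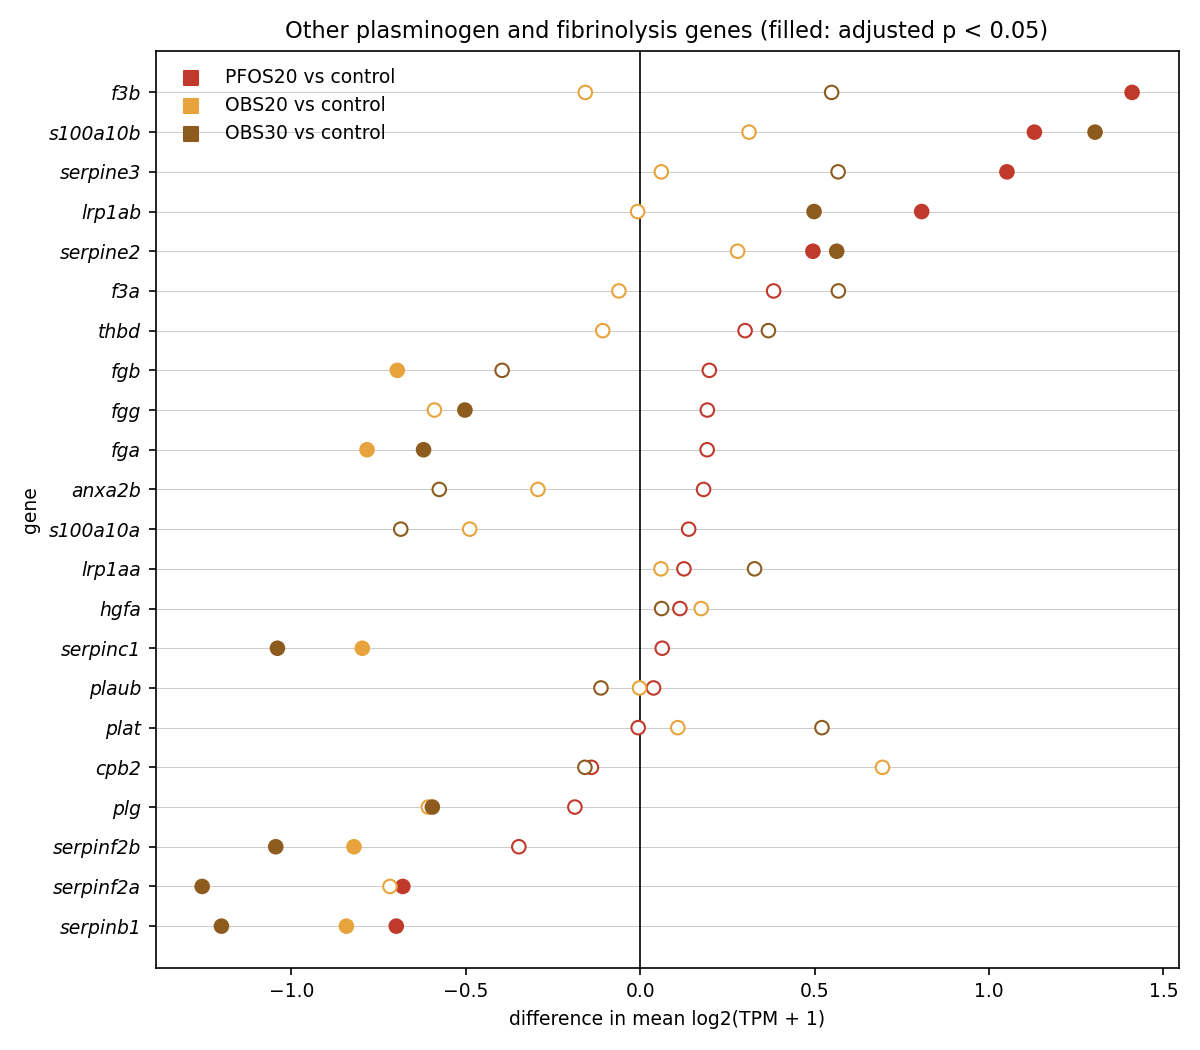
Change in mean log2(TPM + 1) of genes of the plasminogen and fibrinolysis list in PFOS20, OBS20 and OBS30 against control, ordered by the PFOS20 change, with filled points for adjusted p below 0.05. f3b and s100a10b are at the right in PFOS20 (1.41 and 1.13), and antiplasmin and serpinb1 genes are at the left in OBS30.

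anxa2a rose in PFOS20 and in OBS30, and the OBS30 change was the largest of any of the 6 genes against control. Its levels were 199, 143 and 155 TPM in PFOS20, 121, 111 and 132 TPM in OBS20, 259, 269 and 222 TPM in OBS30, and 96.3, 94.1 and 88.8 TPM in control. All 9 exposed libraries were above all control libraries. The change was 0.81 ± 0.13 in PFOS20 (adjusted p = 0.0019), 0.38 ± 0.13 in OBS20 (adjusted p = 0.25) and 1.41 ± 0.13 in OBS30 (adjusted p = 6.8e-05), the last a 2.69-fold higher mean. The PFOS20 and OBS30 calls held under all 20 alternatives.

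s100a10b is an S100A10 gene, whose product partners annexin A2 in mammals. s100a10b was called in the same comparisons with control as anxa2a. It had 409 ± 36.6 TPM in PFOS20, 233 ± 36.7 TPM in OBS20, 461 ± 38.6 TPM in OBS30 and 186 ± 11.8 TPM in control (SD, n = 3 each). It rose by 1.13 ± 0.12 in PFOS20 (adjusted p = 2e-04) and by 1.30 ± 0.12 in OBS30 (adjusted p = 6.7e-05), and its change in OBS20 was 0.31 (adjusted p = 0.32). The other S100A10 gene, s100a10a, was not called in PFOS20 or OBS20 against control. Its means were 107.9 TPM in OBS30 and 123.9 TPM in OBS20, a difference of -0.20 (adjusted p = 0.75). anxa2b, the other annexin A2 paralogue, was not called in any comparison, at means of 30.7 TPM in PFOS20, 21.8 TPM in OBS20, 17.9 TPM in OBS30 and 26.9 TPM in control. The ratio of anxa2a to anxa2b was 5.50 ± 1.05 in PFOS20, 5.69 ± 0.820 in OBS20, 14.95 ± 5.61 in OBS30 and 3.56 ± 0.753 in control. Reads shared by the annexin A2 paralogues could be split between them.

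Against control, anxa1a was called in OBS30, with the smallest change of the calls among the 6 genes. It had 198, 152 and 140.4 TPM in PFOS20, 163, 158 and 166 TPM in OBS20, 222, 193 and 202 TPM in OBS30, and 141, 145 and 138 TPM in control. OBS20 and OBS30 lay wholly above control, and PFOS20 overlapped it. The change was 0.19 ± 0.11 in PFOS20 (adjusted p = 0.26), 0.20 ± 0.11 in OBS20 (adjusted p = 0.63) and 0.54 ± 0.11 in OBS30 (adjusted p = 0.014). The OBS30 change was not called without OBS30 replicate 1 (0.48, adjusted p = 0.059) or control replicate 4 (0.52, adjusted p = 0.057). It was also not called with median-of-ratios scaling (0.51, adjusted p = 0.18) or with the replicate number as a block.

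The other annexin A1 paralogues followed different orders. anxa1c was highest in OBS20, at 76.7 ± 4.67 TPM, against 34.2 ± 4.95 TPM in control, a rise of 1.15 ± 0.13 (adjusted p = 0.0013). anxa1b fell in OBS20, to 28.1 ± 1.91 TPM, against 57.8 ± 2.18 TPM in control, a change of -1.01 ± 0.14 (adjusted p = 0.004). anxa1d rose by 0.63 ± 0.12 in OBS20 (adjusted p = 0.028), a call lost without OBS20 replicate 1 or 2 or any 1 control library. In PFOS20 anxa1c rose by 0.54 (adjusted p = 0.015), a call lost without PFOS20 replicate 2 or control replicate 2, and in OBS30 none of anxa1b, anxa1c and anxa1d was called against control. Of 27 annexin and S100 genes tested beside the 7, 6 rose and 3 fell in PFOS20, and 2 rose and 1 fell in OBS20. In OBS30 5 rose and 1 fell. Over all rows 6.35% were called higher and 11.9% lower in PFOS20, 0.681% and 0.805% in OBS20, and 4.73% and 3.7% in OBS30. The list medians in that order were -0.083, 0.083 and 0.15, beside -0.13, -0.084 and 0.021 over all rows. The genes called include s100u, with a rise of 0.63 in PFOS20. They also include falls of s100a11 by 0.69 and anxa3a by 0.63 in PFOS20, and a fall of s100b by 0.63 in OBS30. With median-of-ratios scaling 1 was called higher in OBS20, 3 were higher in OBS30 and 1 was lower in PFOS20. With 1 library left out, the PFOS20 counts were 3 higher without control replicate 2, and 6 lower without PFOS20 replicate 4, 1 without PFOS20 replicate 2 or 3 or control replicate 3 and 0 without control replicate 4. In OBS20 1 was higher without OBS20 replicate 1 or any 1 control library. In OBS30 1 was higher without OBS30 replicate 1 or 3 or control replicate 4, 2 without OBS30 replicate 4 or control replicate 3, and 3 without PFOS20 replicate 3 or control replicate 2, while the lower count was 2 without OBS20 replicate 3 and 0 without OBS30 replicate 4 or control replicate 3.

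**Figure D4:**
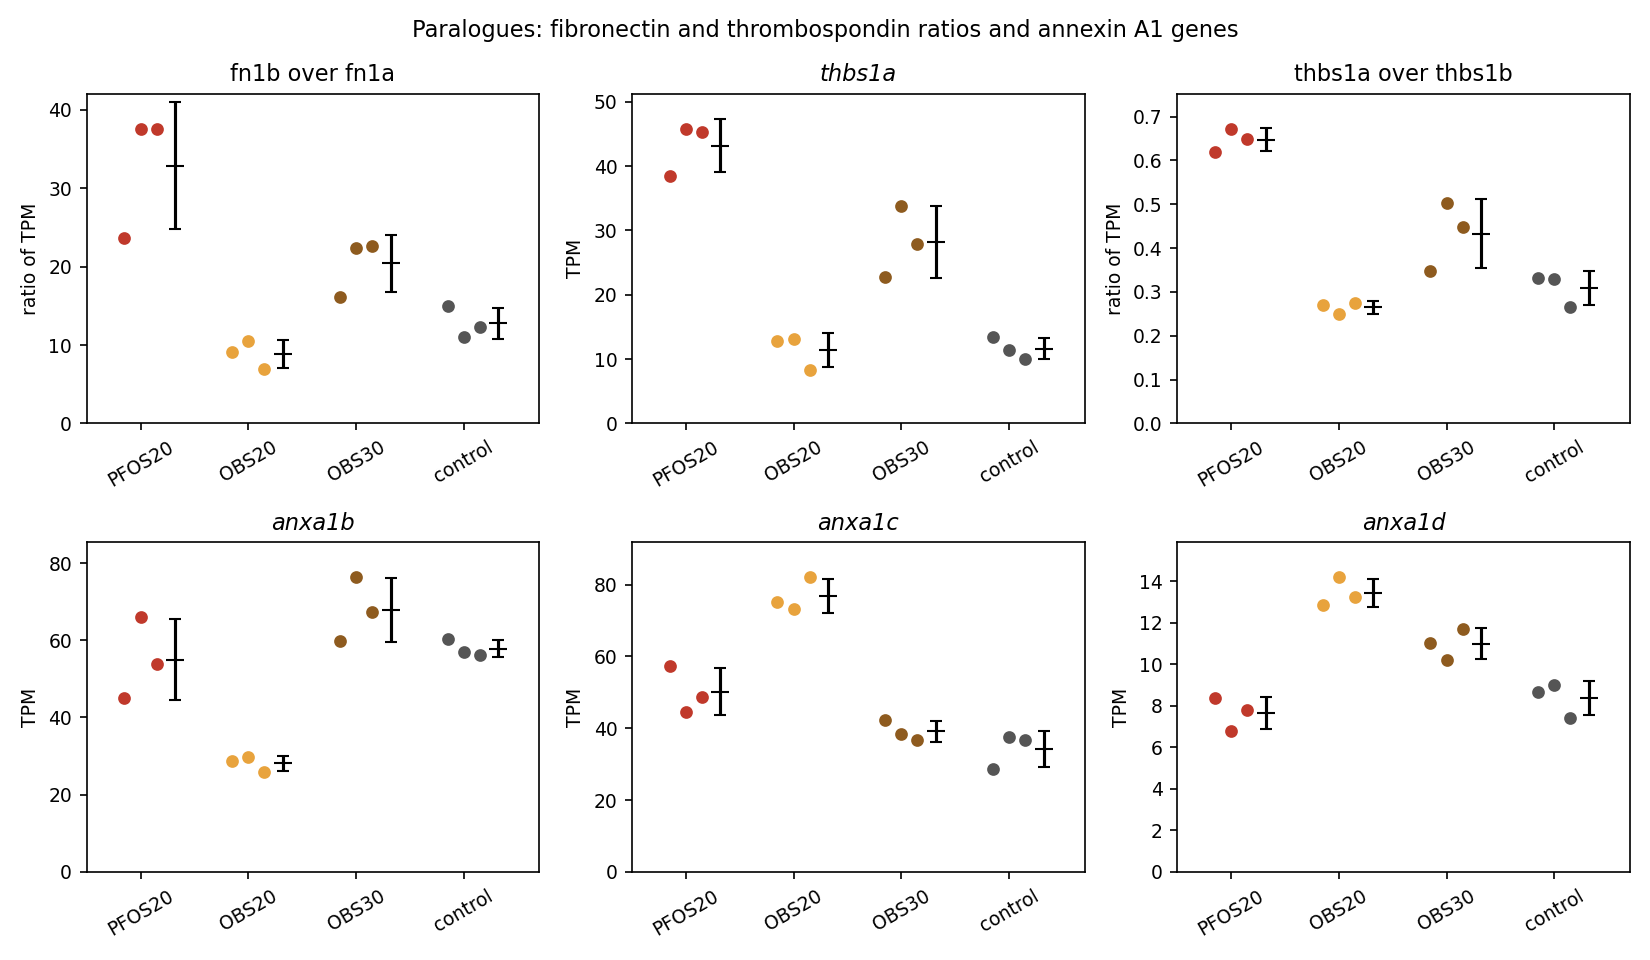
Ratios of TPM (fn1b over fn1a, thbs1a over thbs1b) and TPM of thbs1a, anxa1b, anxa1c and anxa1d in each library, with bars for mean ± SD, n = 3. The fn1b to fn1a ratio is 23.6 to 37.6 in PFOS20, against 10.99 to 14.95 in control, and anxa1b is lowest where anxa1c and anxa1d are highest, in OBS20.

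At the matched 20 mg/L, 2 of the 6 genes were lower in OBS20 than in PFOS20, where 9.77% of all rows were called (5.85% higher and 3.92% lower), and 4 were not called. Libraries did not overlap for 4 of the 6, as for 23.3% of all rows. fn1b had a mean of 44.8 TPM in OBS20 and 137.7 TPM in PFOS20, a difference of -1.68 ± 0.31 (95% interval -2.36 to -1.01, adjusted p = 0.0067), and no OBS20 library reached the lowest PFOS20 library. This call held with each of the 12 libraries left out, and was not reached with only the 6 libraries compared (adjusted p = 0.055). thbs1b had a mean of 43.5 TPM in OBS20 and 66.6 TPM in PFOS20, a difference of -0.64 ± 0.17 (interval -1.01 to -0.27, adjusted p = 0.036). It was called in 2 of the 12 fits that left out a library, those without OBS20 replicate 2 or 3, and the adjusted p of the other 10 reached 0.12. For anxa2a the difference was -0.43 ± 0.13 (interval -0.71 to -0.16, adjusted p = 0.054), and it was called without OBS20 replicate 3 (-0.50, adjusted p = 0.03), with a mean of at least 5 TPM (0.035) and with quantile normalisation (0.041). tnc differed by 0.59 ± 0.22 (interval 0.10 to 1.07, adjusted p = 0.12), and was called without OBS20 replicate 3 (0.78, adjusted p = 0.028), with quantile normalisation (0.049) and with median-of-ratios scaling (0.048). fn1a differed by 0.14 (interval -0.31 to 0.59) and anxa1a by 0.0043 (interval -0.25 to 0.25), so differences within those intervals were not excluded.

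Related genes also differed between the compounds at that dose. thbs1a was lower in OBS20 than in PFOS20 by 1.85 on the log2 scale (adjusted p = 0.00037), f3b by 1.57 (adjusted p = 0.0016) and s100a10b by 0.82 (adjusted p = 0.0019), while s100a11 was higher by 1.41 (adjusted p = 0.00089). Over all rows 5.85% were called higher and 3.92% lower in OBS20 than in PFOS20. In the plasminogen list 9 of 23 were lower in OBS20 than in PFOS20 and none was higher. Of 43 tested genes of a wider list of provisional and wound matrix genes, 12 were lower and 1, tgm2a, a transglutaminase gene that was higher by 0.58, was higher. That count of 12 was 5 with only the 6 libraries compared, 6 without PFOS20 replicate 2 and 7 without PFOS20 replicate 3, and tgm2a was not called without PFOS20 replicate 3.

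Between the OBS doses, 2 of the 6 genes were higher in OBS30 than in OBS20, where 1.58% of all rows were called, 1.11% higher and 0.466% lower. Libraries did not overlap for 4 of the 6, as for 16.8% of all rows. anxa2a had a mean of 250.3 TPM in OBS30 and 121 TPM in OBS20, a difference of 1.04 ± 0.13 (interval 0.76 to 1.31, adjusted p = 0.003) that was called with each library left out and not with median-of-ratios scaling (0.90, adjusted p = 0.091). fn1b had a mean of 117.7 TPM in OBS30 and 44.8 TPM in OBS20, a difference of 1.44 ± 0.31 (interval 0.76 to 2.11, adjusted p = 0.046). That call was lost in all 12 fits that left out a library, with adjusted p of 0.051 to 0.18. thbs1b differed by 0.61 ± 0.17 (adjusted p = 0.13) and was called with quantile normalisation (adjusted p = 0.035) and with median-of-ratios scaling (adjusted p = 0.045). anxa1a differed by 0.34 ± 0.11 (adjusted p = 0.21), fn1a by 0.21 and tnc by 0.025. Among paralogues, anxa1b was higher in OBS30 than in OBS20 by 1.24 (adjusted p = 0.0021), thbs1a was higher by 1.24 (adjusted p = 0.011; not called without OBS30 replicate 3), and anxa1c was lower by 0.95 (adjusted p = 0.0049).

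In the list of provisional and wound matrix genes, 12 of 43 rose and none fell in PFOS20, where 6.35% of all rows were called higher and 11.9% lower. The list median was 0.30 beside -0.13 over all rows. An unadjusted p below 0.05 was found for 21 of the list, beside 10019 of all 30674 rows. Besides thbs1a the largest rise was that of ccn1, which encodes a secreted integrin ligand, at 24.9 ± 2.40 TPM in PFOS20, against 7.64 ± 1.37 TPM in control, a change of 1.59 ± 0.19 (adjusted p = 0.00047). ccn1l1, ccn1l2 and ccn2a of the same family, sdc4 (a syndecan that binds fibronectin), vcanb (versican), fbln1, loxa, spp1, cd44a and thbs4b were also called higher. In OBS20 none was called by limma, with 6 at an unadjusted p below 0.05, beside 3218 of all 30674 rows. In OBS30 7 rose and 3 fell, where 4.73% of all rows were called higher and 3.7% lower. The rises again included ccn1 (1.04), sdc4 (0.97), vcanb (0.95) and ccn2a (0.92), and the falls included thbs3b (-0.71, adjusted p = 0.039). With quantile normalisation 21 were called higher and 1 lower in PFOS20, and with median-of-ratios scaling 20 higher and 1 lower. Under each of these scalings 1 was called higher in OBS20, and with median-of-ratios scaling 1 was called lower in OBS30. Without OBS20 replicate 3 the PFOS20 count was 18 higher and 2 lower, with 1 lower also without PFOS20 replicate 4 or OBS20 replicate 2. The OBS30 count was 4 higher without control replicate 3 and 0 to 3 lower over the libraries left out, and the call of thbs3b was lost in 9 of those fits.

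The count of receptor genes called depended on the scaling. The list of receptor genes held cd47, which was not among the genes tested. Of 27 tested integrin, CD36 and adhesion complex genes, none was called in PFOS20 by limma, where 18.3% of all rows were called. An unadjusted p below 0.05 was seen for 5 of the 27, beside 10019 of all 30674 rows. With quantile normalisation 6 were called higher and 1 lower in PFOS20, with median-of-ratios scaling 5 higher, and with only the 6 libraries compared 1 higher and 2 lower. Without OBS20 replicate 3 the counts were 4 higher and 3 lower, and without OBS20 replicate 2 a single gene was lower. The call in both OBS groups was cd36, a thrombospondin and fatty acid receptor, which fell by 0.82 ± 0.13 in OBS20 (adjusted p = 0.011; lost without OBS20 replicate 1 or control replicate 2) and by 1.52 ± 0.13 in OBS30 (adjusted p = 6.2e-05). cd36 had 28.7 ± 5.58 TPM in OBS20, 17.1 ± 1.19 TPM in OBS30 and 50.9 ± 4.69 TPM in control, and its change in PFOS20 was -0.39 (adjusted p = 0.064). In OBS30 no receptor gene was called higher, against 3 with quantile normalisation, 2 with median-of-ratios scaling, 6 with only the 6 libraries compared and 7 without OBS20 replicate 3. Of 28 tested genes for TGF-beta ligands, latency proteins and TEAD targets, 5 rose in PFOS20, and 4 rose and 1 fell in OBS30. None was called in OBS20, with 2 at an unadjusted p below 0.05, beside 3218 of all 30674 rows. Over all rows 6.35% were called higher in PFOS20, and 4.73% were called higher and 3.7% lower in OBS30. With quantile normalisation 10 of the 28 genes were called higher in PFOS20, 1 in OBS20 and 7 in OBS30. With median-of-ratios scaling 10 were called higher in PFOS20 and 8 in OBS30. With only the 6 libraries compared the OBS30 count was 7. ankrd1a, a target of YAP and TEAD, had 19.5 ± 3.67 TPM in PFOS20, against 1.79 ± 0.834 TPM in control, a change of 2.90 ± 0.31 (adjusted p = 0.00026), whereas in OBS30 it was ankrd1b that was called, with a fall of 0.77. tgfbr2a, a TGF-beta receptor gene, rose by 1.15 in PFOS20 and by 0.83 in OBS30, the second call lost without OBS30 replicate 3 or 4 or any 1 control library. Over the libraries left out, the TGF-beta count in PFOS20 was 3 without PFOS20 replicate 3, control replicate 3 or control replicate 4 and 9 without OBS20 replicate 3, and in OBS30 it was 1 to 7 higher, with 7 without OBS20 replicate 3, 1 without OBS30 replicate 3 or control replicate 2, and 2 without OBS30 replicate 4, control replicate 3 or control replicate 4.

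Markers of cell types that make or carry these proteins also moved. For comparison, 6.35% of all rows were called higher and 11.9% lower in PFOS20, 0.681% and 0.805% in OBS20, and 4.73% and 3.7% in OBS30. Of 19 epidermal markers 9 fell and 3 rose in PFOS20 and 8 fell and 2 rose in OBS30, and their summed level was 4367 to 5259 TPM in PFOS20, 7152 to 7974 TPM in OBS20, 4775 to 5496 TPM in OBS30 and 7339 to 7981 TPM in control. The macrophage list summed to 1709 to 2057 TPM in PFOS20, 861 to 1000 TPM in OBS20, 1317 to 1521 TPM in OBS30 and 1064 to 1266 TPM in control, with 18 of 20 markers in the table. Of the 13 tested, 4 rose and 1 fell in PFOS20, none rose and 2 fell in OBS20, and 3 rose and 3 fell in OBS30. A single gene, apoeb, a lipid carrier gene also expressed outside macrophages, made up most of the sum in PFOS20, OBS20 and OBS30. Its mean was 1196 TPM in PFOS20, 528 TPM in OBS20, 1079 TPM in OBS30 and 455 TPM in control. With apoeb set aside, the mean of the macrophage sum was not above control in any exposed group. Endothelial markers summed to 154 to 178 TPM in PFOS20, 88.9 to 121 TPM in OBS20, 126 to 139.6 TPM in OBS30 and 95.2 to 104 TPM in control, with 6 of 20 higher in PFOS20 and 2 in OBS30. Fin fold and fibroblast markers summed to 1719 to 1755 TPM in PFOS20, 1404 to 2103 TPM in OBS20, 1825 to 1848 TPM in OBS30 and 1555 to 1611 TPM in control, with 4 of 19 higher in PFOS20, 1 in OBS20 and 3 in OBS30. Neutrophil sums were 393 to 424 TPM in PFOS20, 265 to 389.8 TPM in OBS20, 325 to 379.9 TPM in OBS30 and 261 to 339.9 TPM in control. They lay above every control library in PFOS20 and overlapped control in both OBS groups. Of 11 tested neutrophil markers 5 rose and 2 fell in PFOS20, none was called in OBS20, and 4 rose and none fell in OBS30. Thrombocyte markers stayed at 13.9 to 21.5 TPM in all groups. At most 2 markers of any list were at 0 in a library. The endothelial and fin fold sums, like fn1b and thbs1b, were higher in every PFOS20 and OBS30 library than in every control library. The macrophage sum was also higher there, but its mean was not above control once apoeb was set aside. The epidermal sum was lower than control in all of those exposed libraries. The median change of the 19 epidermal markers was -0.55 in PFOS20 and 0.17 in OBS30, beside -0.13 and 0.021 over all rows. The lower OBS30 sum therefore does not stand for a fall of most of these markers. In OBS20 the fin fold sum was 1984, 2103 and 1404 TPM in replicates 1, 2 and 3. In the same libraries fn1b had 55.0, 54.9 and 24.5 TPM. The part of these cell types in the changes of the 7 genes was not tested.

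In control the levels ran from anxa1a at 141 TPM through anxa2a, fn1b, thbs1b, tnc and fn1a to plaua, with no overlap between neighbours in that order. anxa1a stood above 97.6% of all tested rows there and fn1a above 50.2%. In PFOS20 the libraries of anxa2a, anxa1a and fn1b overlapped, all at means of 137.7 to 165 TPM, followed by thbs1b, tnc, fn1a and plaua. In OBS20 fn1b and thbs1b overlapped at means of 44.8 and 43.5 TPM, and in OBS30 anxa2a came first, with its lowest library (222.03 TPM) just below the highest library of anxa1a (222.14 TPM).

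Patterns over the 12 libraries varied among the 6 tested genes. The distance between 2 genes was the root mean square difference of their centred log2 values, not scaled by how much each gene varied. It ran from 0.229 between fn1a and anxa1a to 0.959 between fn1b and tnc, and it was 0.735 between fn1a and fn1b. Genes that vary little lie close by this measure, and the SD was 0.241 for fn1a and 0.226 for anxa1a. Among 11042 genes with a mean of at least 5 TPM, the nearest to fn1b were SBNO2 at 0.281, thbs1a at 0.284 and socs3b at 0.292, where fn1b itself had an SD of 0.771. Nearest to anxa2a were ppdpfb at 0.183, ftr86 at 0.195 and s100a10b at 0.196. The genes nearest to thbs1b were elmsan1b, ctnna1 and adssl1 (0.096 to 0.105), those nearest to tnc mkrn1, pdcd10a and igsf21a (0.141 to 0.153), those nearest to anxa1a atp2a1l, gatm and zfand5b (0.086 to 0.107), and those nearest to fn1a ptgr2, FBXO46 and ttc7b (0.129 to 0.136). In the table's annotation fn1a, fn1b, tnc and thbs1b, 4 of the 7, share the KEGG maps of focal adhesion and matrix receptor interaction, 3 carry fibronectin type III domains, 2 carry annexin repeats, and plaua carries kringle and trypsin domains.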

How the data were processed

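Poly(A) RNA of whole larvae was sequenced in 12 libraries. The authors deposited TPM for 44667 rows (32520 Ensembl genes and 12147 assembled loci). The submitters' processing notes name HISAT2, StringTie, RSEM and GRCz11; versions and roles are not given in the sources used here. No read counts were used, so depth is unknown and precision comes from the spread between libraries. Strand use in counting is not stated, so antisense reads cannot be told apart.

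Rows that reached 1 TPM in 3 or more of the 12 libraries (30674) were fitted as log2(TPM + 1) in limma 3.58.1 (R 4.3.3; eBayes with a mean-variance trend), with a group term, 5 contrasts, two-sided tests and Benjamini-Hochberg adjustment over all rows. The log scale understates changes of low genes. Intervals are 95%. The pipeline was tested on simulated data.

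The 7 genes and the gene lists were chosen with earlier results of these data known. All 7 are named. From each list, up to 2 called genes per direction in PFOS20 against control, and 1 in each other contrast, were named by size of change; the paralogues, taken by shared KEGG orthology, and the other list genes were named after their values were seen. Likeness was measured for the 3 nearest genes. Replicate numbers were not used as pairs in the main test. Alternatives were a pseudocount of 0.1, no filter (39583 rows), a mean of at least 5 TPM (14503 rows), median-of-ratios scaling, quantile normalisation, no mean-variance trend, the replicate number as a block, only the 6 libraries compared, and each library left out. List counts under these settings were added after seeing the data. Genome positions and sequences were not used here. The results of 1 gene of the plasminogen list are not reported here; it remains in that list's counts and median.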

Additional observations from a re-analysis of the deposited data

Results flagged for a closer look

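Among the 6 tested genes, each tested in both comparisons, 4 differences between exposure groups passed a test of the difference itself in limma. Of all rows 9.77% were called in OBS20 against PFOS20 and 1.58% in OBS30 against OBS20. Libraries did not overlap for 23.3% and 16.8% of all rows. At 20 mg/L fn1b was lower in OBS20 than in PFOS20 by 1.68 on the log2 scale, a difference of -1.68 ± 0.31 (adjusted p = 0.0067), with no overlap of libraries. thbs1b was also lower in OBS20 than in PFOS20, a difference of -0.64 ± 0.17 (adjusted p = 0.036), and no library overlapped. Between the OBS doses, fn1b was higher in OBS30 than in OBS20 by 1.44 ± 0.31 (adjusted p = 0.046), in 3 of 3 OBS30 libraries against every OBS20 library. anxa2a was higher in OBS30 than in OBS20 by 1.04 ± 0.13 (adjusted p = 0.003), again in 3 of 3 libraries. The fn1b difference between OBS doses and the thbs1b difference between compounds lost their calls in 12 and 10 of the 12 fits that left out a library, whereas the other 2 kept theirs in all 12.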

How the results depend on the processing

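Over the single-gene comparisons of the 6 genes, the alternatives gave the same direction and side of the threshold 518 times, a lost call 48 times, a gained call 11 times and another direction 18 times, always in values that were not called. fn1a in PFOS20 was 0.071 with quantile normalisation, 0.045 with median-of-ratios scaling and -0.25 to 0.038 with a library left out, and in OBS20 it was -0.038 with the replicate block and -0.092 to 0.23 with a library left out. anxa1a in OBS20 against PFOS20 was -2.4e-05 with quantile normalisation, -0.062 with median-of-ratios scaling, -0.054 with the replicate block and -0.097 to 0.15 with a library left out. tnc in OBS30 against OBS20 was -0.083 with quantile normalisation, -0.10 with median-of-ratios scaling and -0.17 to 0.24 with a library left out. The count of the 6 genes called ran with a library left out from 2 to 4 in PFOS20 and 1 to 4 in OBS30 against control. It was 1 to 4 in OBS20 against PFOS20, 1 throughout in OBS30 against OBS20, and 0 throughout in OBS20 against control. In OBS30 against OBS20 it was also 1 with a pseudocount of 0.1, no filter, no mean-variance trend and only 6 libraries. In OBS20 against PFOS20 it was 4 with quantile normalisation, 1 with no trend and 0 with only 6 libraries. Counts over all rows were 3931 (OBS30 against control), 5051 (OBS20 against PFOS20) and 803 (between the OBS doses) with quantile normalisation, 4541 (OBS20 against PFOS20) with median-of-ratios scaling, 316 (OBS30 against OBS20) with no trend, and 109 (OBS20 against control), 576 (OBS20 against PFOS20) and 88 (between the OBS doses) with only 6 libraries. With a library left out they ran from 3090 to 8716 in PFOS20, 230 to 505 in OBS20 and 1488 to 3965 in OBS30 against control. They ran from 1387 to 6491 in OBS20 against PFOS20, and from 140 to 427 between the OBS doses. The highest counts of PFOS20, OBS20, OBS30 and OBS20 against PFOS20 were those without OBS20 replicate 3. The comparisons of PFOS20 and OBS30 with control do not hold that library, and their median changes stayed at -0.13 and 0.021. There the changes were the same, and only the spread, which the fit takes from all 12 libraries, differed. Why OBS20 replicate 3 stood apart was not tested, nor was the cause in the comparisons that hold OBS20. Same-numbered libraries did not deviate together (r of -0.115 to 0.101 in 13 pairs, against -0.186 to 0.25 in 41 other pairs, and 3 of 12 libraries closest to one of their own number). The main test did not use the numbers as pairs, because the labels do not say that they mark a shared clutch. Such low correlations cannot decide whether same-numbered libraries shared a clutch or batch, which is not stated in the sources used here. With the replicate block the counts over all rows were 3634 in PFOS20, 136 in OBS20 and 1150 in OBS30 against control, with 1389 in OBS20 against PFOS20 and 133 between the OBS doses, and of the 6 genes 1 was called in OBS30 against control, 1 between the compounds and 1 between the OBS doses. Values near or below 1 TPM, such as those of plaua, limit what can be detected.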
